A study of Homo sapiens with 12 samples.

Results

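The comparison described here sets the late dark cultures of HaCaT cells, grown beside cells given 42 irradiation sessions (dark_42), against the dark cultures grown beside cells given 14 sessions (dark_14). HaCaT is a spontaneously immortalized human skin keratinocyte line, labelled wild-type here, and none of these cells received light. The libraries were chosen by their sample titles, and they are 4 of the 12 libraries of the series, 2 per group, lettered a and b. All cultures grew in the same serum-containing medium and were passaged throughout, and the irradiated ones received repeated sessions of blue light in buffer. No source used here tells whether dark plates were also placed in buffer for each session. The remaining libraries are the irradiated cultures after 42 and 14 sessions (blue_42 and blue_14) and the irradiated and dark cultures at 3 sessions (blue_3 and dark_3), again with 2 libraries each. The question was how unirradiated cells drifted over the second portion of the experiment, and which of the differences lie in transcripts of neurons and which in transcripts of keratinocytes.

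Keratinocytes are the main cells of the epidermis. Basal cells divide and express KRT5 and KRT14, and cells that leave the basal layer switch to KRT1, KRT10 and envelope proteins such as involucrin. Mitochondria keep a small genome of their own that encodes subunits of the respiratory chain and the ribosomal RNAs to translate them, while the other subunits come from nuclear genes. Keratinocytes also carry an interferon response, in which sensors of double-stranded RNA such as RIGI and IFIH1 lead to expression of many antiviral genes. Synaptic vesicle proteins, neurofilaments and myelin proteins are characteristic of neurons and glia and are not typical of keratinocytes.

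Total counts were 7666289 and 7262303 in dark_42 and 3561392 and 7950222 in dark_14, and 2073160 to 8183941 over all 12 libraries. Values are counts of reads near transcript 3' ends, given as CPM, that is as shares of the scaled library total, so they were not divided by transcript length. Within a group, libraries a and b differed by more than sampling of reads gives: chi-square divided by its degrees of freedom was 8.57 in dark_42 and 5.15 in dark_14. No label says that a and b came from different cultures, and the p-values therefore reflect only how these libraries vary, possibly for technical reasons. Defining keratinocyte genes were present in every dark library: KRT5 had 641 and 515 CPM in dark_42, against 962 and 1045 CPM in dark_14, and KRT14 had 504 and 568 CPM in dark_42, against 693 and 614 CPM in dark_14.

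Of 12878 genes tested, 907 were called between dark_42 and dark_14 at an adjusted p under 0.05 in edgeR's quasi-likelihood test, which is 7.04% of those tested. Lower levels in dark_42 were the more frequent, with 674 genes called lower (5.23%) and 233 called higher (1.81%). The median log2 difference over all tested genes was 0.01. The 2 libraries of one group lay entirely beyond those of the other for 49.7% of tested genes (24.8% with dark_42 above, 24.9% with dark_42 below), so an absence of overlap is common here. The counts depended on single libraries: without dark_14 a, the shallower library of its group, 33 genes were called higher and 251 lower. The counts higher and lower were 106 and 386 without dark_14 b, 130 and 550 without dark_42 a, and 140 and 349 without dark_42 b. Leaving out either dark_3 library gave 134 called higher, and leaving out blue_14 b gave 352. Of the 135 called genes named by the rule used here, 45 were called in all 12 fits that left out 1 library.

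The called genes are described first by their level in dark_3, a group on neither side of the comparison. A gene with a low level in dark_3 passed the filter on low counts through other groups, so the direction of calls in that range is a description. Among 1667 tested genes under 2 CPM in dark_3, 124 were called lower in dark_42 and 2 higher, and the called falls had a median log2 difference of -3.04. Of those 124, 35 stood on the lists of neuron and glia genes. Among 8522 genes at 10 CPM or more in dark_3, 485 were called lower with a median of -0.62 and 212 higher with a median of 0.51. Only 2 of the 19 neuron and glia list members in that range were called lower. The plot of differences by level shows both ranges.

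**Figure D1:**
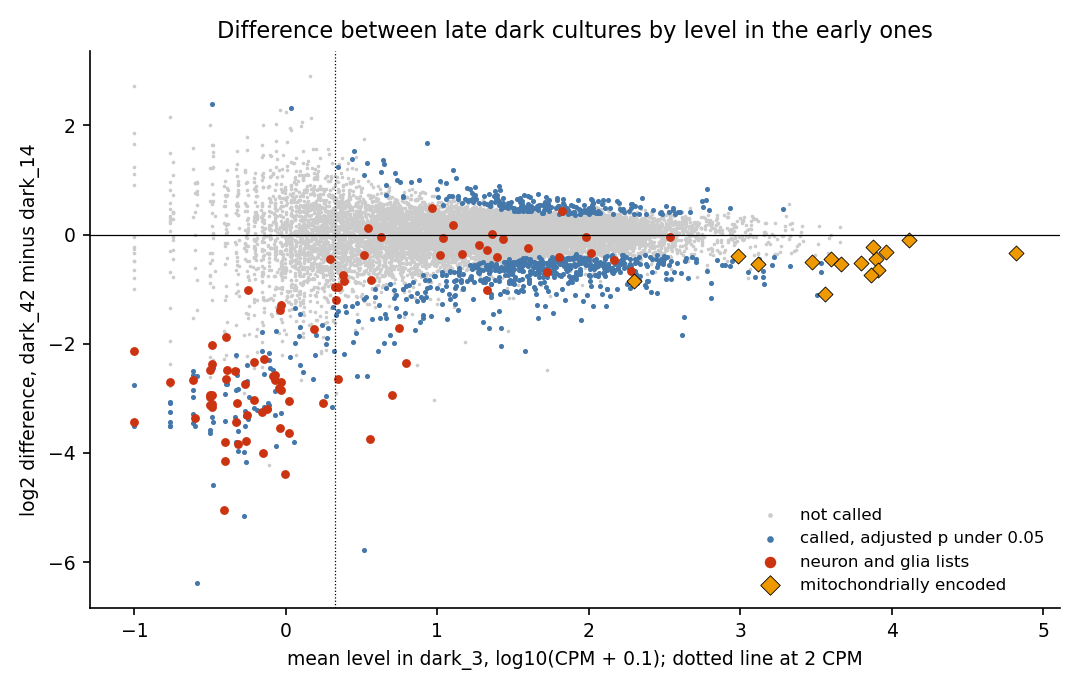
Log2 difference of dark_42 minus dark_14 (vertical axis) against the mean level in dark_3 (horizontal axis, log10 of CPM plus 0.1) for 12878 tested genes; blue points were called at an adjusted p under 0.05, red points are neuron and glia list members and orange diamonds are mitochondrially encoded transcripts. Red points left of the dotted line at 2 CPM lie between -5.05 and -0.44, while the 15 mitochondrially encoded transcripts lie between -1.08 and -0.10 at the right.

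Transcripts of neurons were lower in dark_42 than in dark_14. The lists held 114 neuron and 19 glia genes, and 116 rows of the count table that belong to them had under 2 CPM in dark_3. The summed level of all 116 rows, tested or not, was 44.1 and 22.2 CPM in dark_42, against 224 and 236 CPM in dark_14. The dark_14 libraries were both far above both dark_42 libraries, by 6.94-fold in the means, which were 33.15 ± 15.4 CPM in dark_42 and 229.9 ± 7.92 CPM in dark_14 (SD, n = 2 each). With 2 libraries a group, an exact two-sided permutation test of such a sum cannot go below 0.333. The dark_3 libraries had 21.3 and 42.6 CPM, which is low because the rows were chosen for a low level in dark_3. In bulk RNA, fewer cells of a type and less RNA per cell cannot be told apart.

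Single genes of these lists showed the same order. SYT1, the calcium sensor of synaptic vesicles, had 3.84 and 2.60 CPM in dark_42, against 23.5 and 17.8 CPM in dark_14. Its log2 difference was -2.64 ± 0.28 (SE, adjusted p = 1.1e-05), and it was called in all fits that left out 1 library. KIF5A, a kinesin of axons, had 1.54 and 0.78 CPM in dark_42, against 9.16 and 9.96 CPM in dark_14. RTN1, a reticulon of neurons and neuroendocrine cells, had 0.38 and 0.26 CPM in dark_42, against 5.44 and 5.49 CPM in dark_14. RTN1 rests on 5 counts over both dark_42 libraries and 62 over both dark_14 libraries, a ratio of 0.0589 with an exact 95% interval of 0.0185 to 0.145 for counting error only. GAP43 of growth cones, the splicing regulator CELF4, the vesicle protein CPLX2 and the neurofilament partner INA were also called lower in every such fit, and over all 12 libraries their log2 differences lay between -3.55 and -2.36. CAMK2A, the synaptic kinase, had 7.04 and 10.9 CPM in dark_42, against 37.5 and 23.8 CPM in dark_14, a log2 difference of -1.72 ± 0.27 (adjusted p = 0.0012).

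Shares over all tested genes were 5.23% called lower and 1.81% higher, and 7.44% called lower among genes under 2 CPM in dark_3. Over the neuron lists together, 73 of 114 genes passed the filter on low counts. Of these, 36 were called lower and 0 higher, and the median log2 difference was -2.36. These values describe the genes that passed: 14 of the 73 reached the filter's level of 1.4 CPM in 2 libraries only with dark_14, the group where they were high. Of the other 59 genes 30 were called lower, with a median of -1.73. With at least 5 CPM in 2 libraries as the filter, 12 neuron genes were called lower and the median was -0.41. At an unadjusted p under 0.05, 1 was higher, and DESeq2 called 30 lower and 0 higher. Of the 49 low neuron and glia rows that passed the filter, 34 would have passed without the dark_14 libraries. Without dark_14 b, 22 neuron genes were called lower. The other neuron members, 29 rows at 2 CPM or more in dark_3, had a median log2 difference of -0.38 with 5 called lower. They sum to 738 and 651 CPM in dark_42, against 880 and 894 CPM in dark_14, and TUBA4A, GATA3 and NEFL were the highest of them in dark_14. TUBA4A had 246 and 160 CPM in dark_42, against 184 and 234 CPM in dark_14, and GATA3 had 137 and 187 CPM in dark_42, against 241 and 171 CPM in dark_14. Neither was called, and their groups overlapped. MAP2, a microtubule-binding protein of dendrites with 21.3 CPM on average in dark_3, had 16.5 and 13.4 CPM in dark_42, against 29.5 and 30.7 CPM in dark_14 (log2 difference -1.01 ± 0.15, adjusted p = 3.4e-04).

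Glial transcripts were also lower in dark_42. GFAP, the intermediate filament of astrocytes, had 0.26 and 0.13 CPM in dark_42, against 5.16 and 8.30 CPM in dark_14. That is 3 counts over both dark_42 libraries and 83 over both dark_14 libraries, a ratio of 0.0264 with an exact 95% interval of 0.00534 to 0.0799 for counting error only. MOBP of myelin had 0.51 and 0.13 CPM in dark_42, against 4.58 and 7.03 CPM in dark_14. MBP, which HaCaT libraries hold at high levels, had 153 and 167 CPM in dark_42, against 261 and 247 CPM in dark_14 (log2 difference -0.66 ± 0.12). Of 10 tested glia genes, 6 were called lower and 1 higher, beside 5.23% and 1.81% over all tested genes. The 1 called higher was the glutamate transporter SLC1A3, which had 134 and 164 CPM in dark_42, against 103 and 116 CPM in dark_14. SLC1A3 was chosen after its values were seen.

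Markers of other cell types were at low levels. Haemoglobin genes summed to 1.67 and 1.301 CPM in dark_42, against 5.16 and 44.1 CPM in dark_14, so a and b of dark_14 differed from each other more than a did from dark_42. Of 6 haemoglobin genes, 2 had no count in any library, and HBA2, whose reads can be shared with its near-identical copy HBA1, was called lower but lost its call in 9 of the 12 fits that left out 1 library, dark_14 b among them. Genes of other organs summed to 0.51 and 0.65 CPM in dark_42, against 1.43 and 0.77 CPM in dark_14, and 7 of those 16 genes had no count in any library. Leukocyte genes summed to 5.51 and 8.84 CPM in dark_42, against 6.59 and 8.30 CPM in dark_14, and endothelial genes to 2.82 and 3.25 CPM in dark_42, against 6.01 and 3.32 CPM in dark_14. Fibroblast genes summed to 13.2 and 16.8 CPM in dark_42, against 19.2 and 19.3 CPM in dark_14. Of 6 tested fibroblast genes 3 lay above 0, the median was 0.02, and DCN and THY1 were called lower. THY1 is also on a neuron list and is counted there too. DCN was not called without dark_14 a or dark_42 a, nor by DESeq2. Melanocyte genes summed to 14.3 and 15.7 CPM in dark_42, against 16.3 and 13.2 CPM in dark_14, and the defining genes TYR, TYRP1 and MLANA had no count.

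The summed level of the neuron lists separates dark_42 from dark_14, so as a term of the model it overlaps with the comparison itself. Rows at 2 CPM or more in dark_3 made up most of that sum. They held 880 and 894 of 1080 CPM in the dark_14 libraries, and 738 and 651 of 778 and 673 CPM in dark_42. The sum is thus not a measure of the low neuron rows alone. With the log2 sum of the neuron lists as a term of the model, 244 genes were called higher and 281 lower. Of these, 26 and 99 were among the calls made without it. With the log2 sum of the 116 low rows instead, a term added after seeing the data, 2 genes were called higher and 9 lower. Of those, 1 and 7 were among the calls made without it. Both sums differed by group themselves. The median standard error for genes above 10 CPM was 0.368 and 0.369 with these terms and 0.144 without. The number of calls lost therefore cannot tell smaller differences from larger standard errors. Whether the differences of keratinocyte genes depend on the source of the neuronal reads was not tested.

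**Figure D2:**
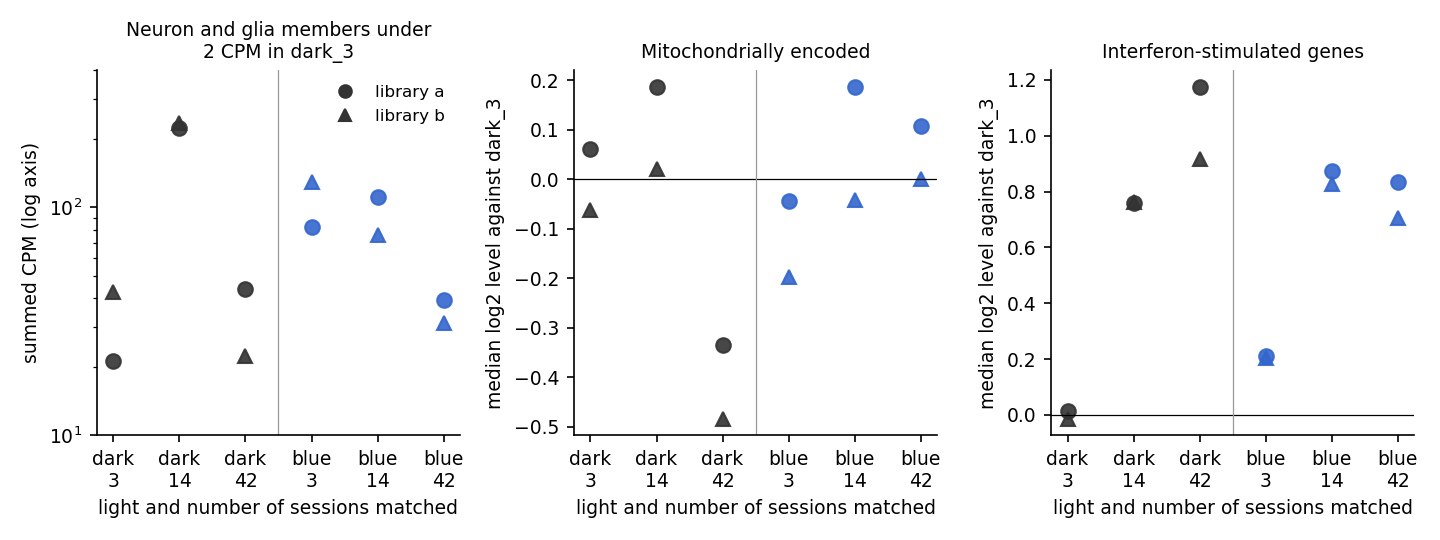
Per-library levels over the 3 dark groups and the 3 irradiated groups; circles are library a and triangles library b. Left, summed CPM of the 116 neuron and glia rows under 2 CPM in dark_3 (log axis), highest in dark_14 at 224 and 236 CPM; middle, the median log2 level of mitochondrially encoded transcripts relative to the mean of dark_3, lowest in dark_42 at -0.33 and -0.48; right, the same for interferon-stimulated genes, highest in dark_42 at 1.18 and 0.92.

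Mitochondrially encoded RNA was lower in dark_42. It made up 12.6% and 12.4% of counts in dark_42, against 16.1% and 14.96% in dark_14, and 13.7% to 15.7% in the other 8 libraries, so the dark_42 libraries were the lowest of all 12. Of 12878 tested genes, 6639 had a positive log2 difference, 5.23% were called lower and 1.81% higher. All 15 tested mitochondrially encoded transcripts had a negative log2 difference, 7 were called lower and 0 higher, and their median was -0.50 against 0.01 over all genes. At an unadjusted p under 0.05, 12 were lower and 0 higher, and DESeq2 called 8 lower and 0 higher. Nuclear copies of mitochondrial sequence can share reads with these genes.

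The largest difference among them was in MT-ND2, a membrane subunit of complex I at chrM:4470-5511. It had 2397 and 1947 CPM in dark_42, against 4869 and 4315 CPM in dark_14, a log2 difference of -1.08 ± 0.17 (adjusted p = 0.0012), and it was called in all 12 fits that left out 1 library. Both dark_42 libraries also lay below the dark_3 mean of 3651 CPM. Other complex I subunits fell less. MT-ND4 had 7068 and 7604 CPM in dark_42, against 13040 and 9933 CPM in dark_14 (log2 difference -0.65 ± 0.14), and lost its call only without dark_14 a. MT-ND3 had a log2 difference of -0.55, MT-ND1 of -0.54 and MT-ND5 of -0.45. Outside complex I, cytochrome b (MT-CYB) fell by 0.52 on the log2 scale and the catalytic oxidase subunit MT-CO1 by 0.50. Without dark_14 a, 1 of the 15 was called, and 2 were called without dark_42 b. MT-ND2 was called in both cases. Leaving out either dark_3 library gave 4.

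Not every mitochondrial transcript moved as far. MT-CO3, a further subunit of cytochrome oxidase, had 13970 and 13520 CPM in dark_42, against 15830 and 13620 CPM in dark_14, a difference inside the spread of the libraries (log2 difference -0.10 ± 0.12, adjusted p = 0.69). MT-RNR2, the large ribosomal RNA and the most abundant of them, had a log2 difference of -0.33 ± 0.13 (adjusted p = 0.14), and the small ribosomal RNA MT-RNR1 of -0.23 ± 0.20 (adjusted p = 0.57). MT-ND6, the only one transcribed from the other strand in this set, had 72.9 and 55.8 CPM in dark_42, against 108 and 122 CPM in dark_14. Its groups did not overlap, as for 49.7% of tested genes, but its adjusted p was 0.12. The transfer RNA gene MT-TL1, which is on no list and was chosen after its values were seen, had 142 and 172 CPM in dark_42, against 393 and 229 CPM in dark_14 (log2 difference -0.98 ± 0.22, adjusted p = 0.022).

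**Figure D3:**
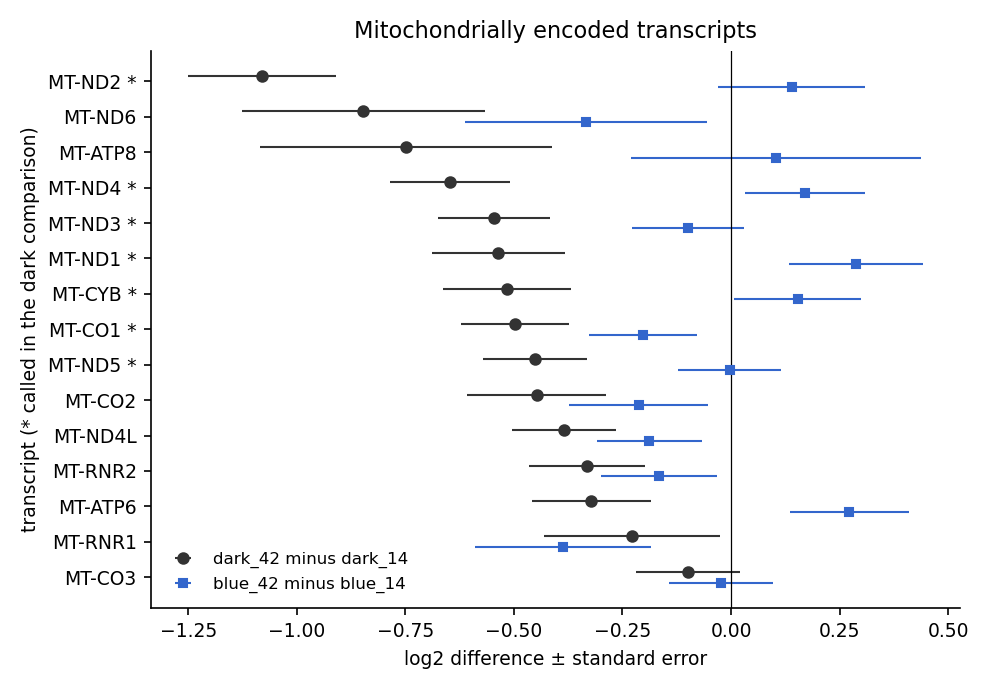
Log2 differences with standard errors of the 15 mitochondrially encoded transcripts, dark_42 minus dark_14 as black circles and blue_42 minus blue_14 as blue squares; an asterisk marks a call in the dark comparison. The black circles run from -1.08 for MT-ND2 to -0.10 for MT-CO3, with a median of -0.50, and the blue squares have a median of -0.02.

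Nuclear genes of the same organelle did not fall as a group. Of 52 tested subunits of the respiratory chain from nuclear genes, 31 lay above 0, the median was 0.07, and 2 were called each way. Over all tested genes 1.81% were called higher and 5.23% lower. ATP5MC3, a ring subunit of ATP synthase, fell by 0.47 on the log2 scale, and COX6A1 and CYC1 rose by 0.40 and 0.37. These 3 calls each depended on single libraries. COX6A1 and CYC1 were not called without dark_14 a or dark_42 a, and ATP5MC3 was not called without dark_14 b or dark_42 b. Among 23 genes that maintain or express mitochondrial DNA, 2 were called higher: MTERF3, a repressor of mitochondrial transcription, at 4.35 and 3.90 CPM in dark_42, against 1.72 and 1.66 CPM in dark_14, and the nuclease MGME1, at 56.4 and 64.9 CPM in dark_42, against 45.8 and 46.0 CPM in dark_14. Neither was called without dark_14 a or without dark_14 b, although the groups did not overlap, as for 49.7% of tested genes. Mitochondrial ribosomal proteins had a median of 0.12 over 31 genes with 0 called by edgeR or DESeq2, and 7 higher and 2 lower at an unadjusted p under 0.05.

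Genes of the interferon response stood higher in dark_42. Of 44 tested interferon-stimulated genes, 37 had a positive log2 difference and the median was 0.30, against 0.01 over all genes. Calls were few, with 6 higher and 1 lower, beside a background of 1.81% higher and 5.23% lower. IFIT2, an antiviral protein that binds RNA, had 260 and 222 CPM in dark_42, against 155 and 157 CPM in dark_14 (log2 difference 0.62 ± 0.12, adjusted p = 0.0038), and was called in all 12 fits that left out 1 library. IFIH1 had 91.1 and 74.1 CPM in dark_42, against 49.0 and 58.1 CPM in dark_14 (log2 difference 0.61 ± 0.14). RIGI had 80.0 and 84.5 CPM in dark_42, against 45.5 and 63.0 CPM in dark_14 (log2 difference 0.57 ± 0.13). In each of these sensors and effectors, picked among the called members, both dark_42 libraries lay above both dark_14 libraries. This was so for 24.8% of all tested genes. HERC5, the ligase that attaches ISG15, PARP14, a mono-ADP-ribosyl transferase, and LGALS3BP, a secreted glycoprotein, rose by 0.54, 0.39 and 0.45 on the log2 scale. LGALS3BP was chosen after its values were seen. STAT2, a transcription factor of the pathway, fell, with 29.8 and 28.5 CPM in dark_42, against 46.4 and 39.5 CPM in dark_14 (log2 difference -0.54 ± 0.16, adjusted p = 0.044). STAT2 was called in 4 of the 12 fits that left out 1 library, those without a blue_42 or a blue_14 library, and not by DESeq2. Without dark_14 a only 1 of the 6 was called. ISG15, an abundant member, had 128 and 89.5 CPM in dark_42, against 72.8 and 89.4 CPM in dark_14, and was not called (adjusted p = 0.19).

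The per-library median of these genes relative to dark_3 was 1.18 and 0.92 in dark_42, against 0.76 in both dark_14 libraries. The irradiated libraries stood at 0.83 and 0.70 in blue_42, against 0.87 and 0.83 in blue_14. All late libraries were thus above dark_3, and dark_42 was the highest of the 6 groups. Changes over 42 sessions relative to dark_3 were not tested here.

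Promoters of the called members are shown because interferon-stimulated genes are known for a shared element bound by STAT and IRF factors. The bases shown are the 250 before the RefSeq start of each gene in GRCh38.p14, read 5′ to 3′ on the strand of the gene. Capitals mark every match to GAAANNGAAA or its reverse complement TTTCNNTTTC, overlapping matches included. HERC5 is at chr4:88456869-88457118 on the plus strand, IFIH1 at chr2:162318685-162318934 on the minus strand and PARP14 at chr3:122680589-122680838 on the plus strand.
HERC5: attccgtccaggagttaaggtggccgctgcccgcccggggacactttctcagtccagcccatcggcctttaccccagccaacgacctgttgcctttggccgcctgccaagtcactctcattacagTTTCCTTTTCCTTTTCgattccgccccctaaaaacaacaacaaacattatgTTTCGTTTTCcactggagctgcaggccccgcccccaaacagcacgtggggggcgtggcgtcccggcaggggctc
IFIH1: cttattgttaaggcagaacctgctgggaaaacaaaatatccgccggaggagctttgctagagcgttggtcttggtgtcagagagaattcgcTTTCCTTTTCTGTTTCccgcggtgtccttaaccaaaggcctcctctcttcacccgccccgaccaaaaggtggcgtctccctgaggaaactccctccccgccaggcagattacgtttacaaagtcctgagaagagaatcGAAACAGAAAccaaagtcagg
PARP14: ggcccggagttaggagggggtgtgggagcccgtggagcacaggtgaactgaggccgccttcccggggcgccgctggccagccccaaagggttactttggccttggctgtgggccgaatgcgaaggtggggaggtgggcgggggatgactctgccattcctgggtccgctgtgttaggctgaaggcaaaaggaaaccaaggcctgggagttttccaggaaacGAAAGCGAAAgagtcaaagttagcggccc

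HERC5 and IFIH1 each held 3 matches and PARP14 held 1, so only promoters with a match are shown. LGALS3BP, not shown, held 1. Of the 44 tested interferon-stimulated genes 34 had an entry in the RefSeq promoter table, and 22 of those held a match, which is 64.7%. Over all 35116 promoters of the table the share was 3.02%. Among the members called higher 5 had an entry and 4 held a match. RIGI and STAT2 held none in this window, and IFIT2 had no entry, so its promoter was not examined. A match is a description of these letters and not evidence of binding.

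The largest falls among genes outside the cell type lists included genes at low and at higher levels in dark_3. FAM107A, an actin-associated protein abundant in brain, had 0.90 and 0.65 CPM in dark_42, against 9.45 and 12.01 CPM in dark_14, and BCAS1, known from oligodendrocytes as well as breast cancer, had 1.79 and 4.94 CPM in dark_42, against 22.9 and 18.7 CPM in dark_14. MAP1A, a neuronal microtubule protein, fell by 2.12 on the log2 scale. All were under 4 CPM in dark_3. SPON2, a secreted matrix protein at chr4:1166932-1208962, was different: it had 9.48 and 8.97 CPM in dark_42, against 48.4 and 34.7 CPM in dark_14, and 37.9 CPM on average in dark_3. Its log2 difference was -2.13 ± 0.19 (adjusted p = 6.7e-06), the smallest adjusted p of the comparison. CACNG4, an auxiliary channel subunit, had 4.74 and 5.20 CPM in dark_42, against 26.6 and 16.5 CPM in dark_14. IGSF9, an immunoglobulin superfamily member, had 7.43 and 8.84 CPM in dark_42, against 19.2 and 28.5 CPM in dark_14. CYP4F3, a fatty acid hydroxylase, had 11.9 and 11.4 CPM in dark_42, against 47.0 and 31.6 CPM in dark_14, and DHRS1, a short-chain dehydrogenase, had 47.3 and 45.5 CPM in dark_42, against 153 and 124 CPM in dark_14. The dark_3 means of CACNG4, IGSF9, CYP4F3 and DHRS1 were 26.05, 19.99, 26.1 and 89.2 CPM, above both dark_42 libraries in each case. These were called in all 12 fits that left out 1 library.

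GPR15LG, a ligand of the chemoattractant receptor GPR15, had 3.07 and 5.98 CPM in dark_42, against 26.4 and 11.9 CPM in dark_14, and was called in only 4 of those fits. RPL13AP25 is a pseudogene close in sequence to RPL13A, so its reads are uncertain. BMP4, the growth factor, had 12.2 and 5.98 CPM in dark_42, against 25.2 and 27.1 CPM in dark_14, and lost its call without dark_14 b.

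The largest rises were smaller than the largest falls. GNG11, a gamma subunit of G proteins, had 12.8 and 13.9 CPM in dark_42, against 2.005 and 5.37 CPM in dark_14 (log2 difference 1.67 ± 0.29, adjusted p = 0.0014). ZNF618, a zinc finger protein, had 43.7 and 45.7 CPM in dark_42, against 22.3 and 18.1 CPM in dark_14 (log2 difference 1.17 ± 0.14, adjusted p = 5.9e-05), and 12.5 CPM on average in dark_3, so its 3 dark groups lay in the order of session number. BASP1, a membrane protein at growth cones that also occurs elsewhere, followed the same order, with 88.9 and 92.6 CPM in dark_42, against 53.3 and 50.7 CPM in dark_14, and 25.6 CPM on average in dark_3. CMTM8 of the chemokine-like family rose by 0.94 on the log2 scale, and these 4 kept their calls in all 12 fits. PDIA5 and TXNDC16 of the endoplasmic reticulum, the ubiquitin ligase RNF4, the cobalamin carrier receptor CD320, the transcription factor SOX2, the cytoskeletal regulator NAV2, the small RNA SCARNA22, GKAP1 and the cytokine IL1A rose by 0.84 to 1.04. Without dark_14 b, 4 of the 12 largest rises were called.

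**Figure D4:**
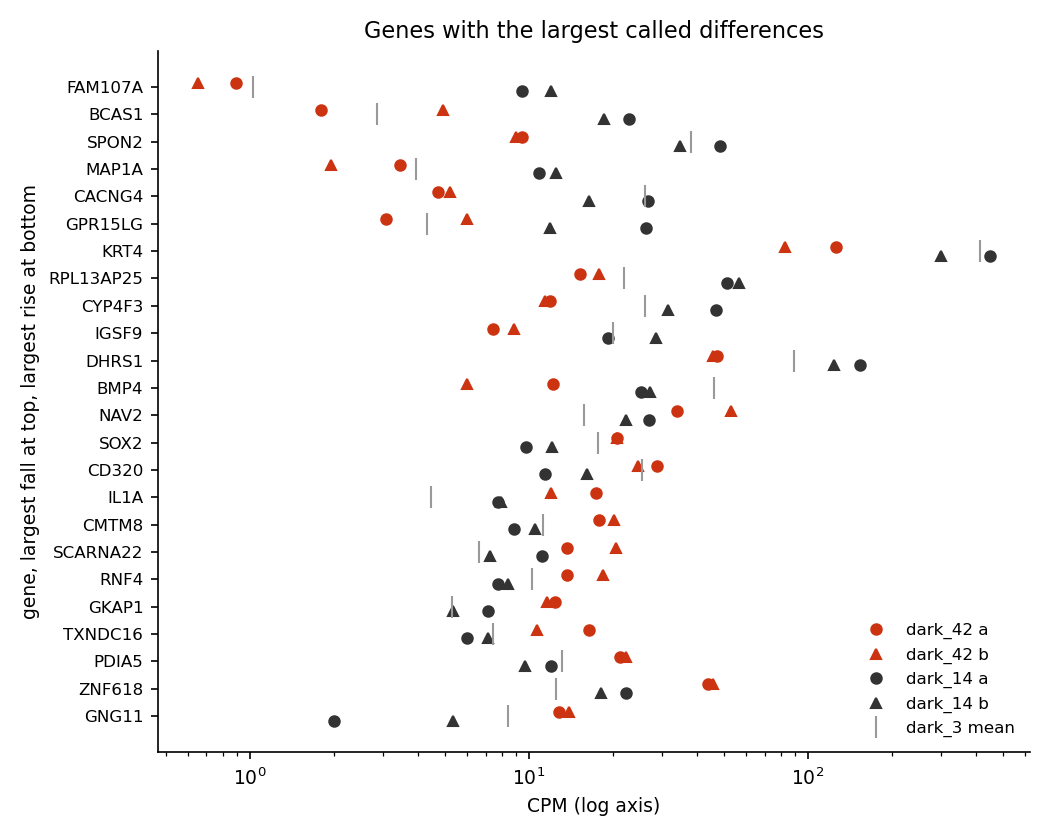
CPM on a log axis of the 12 largest called falls (top) and the 12 largest called rises (bottom) outside the cell type lists, in dark_42 (red) and dark_14 (black), circles for library a and triangles for library b; a grey bar marks the dark_3 mean. Red points lie left of black ones for each fall, SPON2 at about 9 CPM in dark_42, and right of them for each rise.

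Some differentiation genes of the epidermis fell in dark_42, where 5.23% of all tested genes were called lower. Of 19 tested genes of the cornified envelope and differentiation, 5 lay above 0, 4 were called lower and 0 higher (at an unadjusted p under 0.05, 10 were lower and 1 higher, and DESeq2 called 3 lower and 0 higher), and the median was -0.37. IVL, involucrin, had 68.8 and 86.2 CPM in dark_42, against 225 and 164 CPM in dark_14, a log2 difference of -1.32 ± 0.15 (adjusted p = 5.0e-05). Its dark_3 mean of 105.9 CPM lay between the 2 groups. CNFN and SPRR1B, both envelope precursors, had under 3 CPM in dark_42 and at least 3.96 CPM in dark_14, and the desmosomal cadherin DSC2 fell by 0.37 on the log2 scale. Without dark_14 a, or without dark_42 b, IVL was the one still called. KRT1, of suprabasal cells, had 6.15 and 19.0 CPM in dark_42, against 70.2 and 22.1 CPM in dark_14, and KRT10 had 117 and 127 CPM in dark_42, against 190.5 and 136 CPM in dark_14. Neither was called, and FLG, filaggrin, had overlapping groups.

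KRT4 and KRT13, keratins of mucosal epithelia, fell, and 1 keratin of simple epithelia, KRT18, rose. KRT4, a mucosal keratin, had 125 and 82.7 CPM in dark_42, against 449 and 300 CPM in dark_14, a log2 difference of -1.84 ± 0.21 (adjusted p = 4.2e-04). Its usual partner KRT13 had 1956 and 2047 CPM in dark_42, against 5009 and 3569 CPM in dark_14, a log2 difference of -1.10 ± 0.16 (adjusted p = 6.3e-04). Both were called in all 12 fits. The 9 tested basal and simple keratins had a median of -0.32, and KRT18 was the only 1 of them above 0. KRT18 of simple epithelia had 380 and 397 CPM in dark_42, against 299 and 284 CPM in dark_14 (log2 difference 0.42 ± 0.11), and was not called without dark_14 a, dark_14 b or dark_42 b. KRT5 had a log2 difference of -0.80 ± 0.25 with an adjusted p of 0.097. SFN, the 14-3-3 sigma of stratified epithelia, fell in all 12 fits, with 930 and 745 CPM in dark_42, against 1399 and 1485 CPM in dark_14. It was the 1 called of 18 genes of keratinocyte identity, whose median was -0.21. That is close to the 5.23% called lower over all tested genes, where 1.81% were called higher.

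Growth factor and Wnt pathway genes gave 5 calls, all lower, among 30 tested, with a median of -0.22. The counts of this and the next 3 lists stand beside 5.23% called lower and 1.81% higher over all tested genes. PTK7, a Wnt co-receptor, had 45.3 and 45.7 CPM in dark_42, against 125 and 89.4 CPM in dark_14 (log2 difference -1.22 ± 0.15, adjusted p = 5.9e-05). BMP7 had 19.1 and 14.7 CPM in dark_42, against 35.2 and 41.0 CPM in dark_14, and ID1, a target of BMP signalling, had 819 and 791 CPM in dark_42, against 1320 and 1053 CPM in dark_14. The secreted Wnt inhibitor SFRP1 had 3.46 and 3.64 CPM in dark_42, against 5.73 and 6.90 CPM in dark_14, and was called in 2 of the 12 fits that left out 1 library. Without dark_14 b, 2 of the 5 were called, while PTK7 was called in all 12 fits. Contractile and mesenchymal genes gave 6 calls lower of 23, with S100A4 at 32.4 and 35.9 CPM in dark_42, against 68.7 and 59.2 CPM in dark_14, and TPM1 at 62.8 and 67.6 CPM in dark_42, against 96.8 and 90.7 CPM in dark_14. Of the other 4, VIM and ZEB2 were under 3 CPM in every dark library, MYL9 was at 2.56 and 2.73 CPM in dark_42, against 5.73 and 6.13 CPM in dark_14, and CALD1 fell by 0.51 on the log2 scale. Without dark_14 a, 1 of these 6 was called. In 24 genes of cell junctions, CLDN7 and F11R were called lower and neither was called without dark_14 a. ITGB1 was the 1 gene called higher of 18 of basal adhesion, and it lost its call without dark_14 a.

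Inflammatory genes split. PTGES, the inducible prostaglandin E synthase, had 560 and 516 CPM in dark_42, against 1267 and 1131 CPM in dark_14, a log2 difference of -1.16 ± 0.11 (adjusted p = 7.9e-06). The groups were well apart, and dark_3 averaged 639 CPM. Of 21 cytokine and NF-kappaB genes, 4 were called higher and 3 lower, beside 1.81% and 5.23% over all tested genes. IL1A had 17.4 and 11.96 CPM in dark_42, against 7.73 and 7.92 CPM in dark_14, and IL1B had 52.3 and 50.1 CPM in dark_42, against 39.0 and 35.1 CPM in dark_14. Their antagonist IL1RN had 184 and 166 CPM in dark_42, against 266 and 245 CPM in dark_14. NFKB1 and the nuclear regulator NFKBIZ rose by 0.57 and 0.58 on the log2 scale, while RELA, the partner of NFKB1, fell by 0.56. Without dark_14 a, PTGES was the only one of the 7 still called. OLFM4, a secreted glycoprotein of mucosal crypts, had 13.6 and 11.2 CPM in dark_42, against 27.5 and 22.2 CPM in dark_14, and was called in all 12 fits. Its dark_3 mean was 14.65 CPM, below both dark_14 libraries. CEACAM5, an adhesion molecule of mucosal epithelia, had 8.07 and 5.46 CPM in dark_42, against 28.1 and 12.5 CPM in dark_14, and was not called without dark_14 a or dark_42 b.

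Stress and metabolic genes gave calls in both directions, beside 1.81% called higher and 5.23% lower over all tested genes. Of 27 ATF4 and unfolded protein response genes 1 was called each way, and of 28 hypoxia and glycolysis genes 3 higher and 1 lower. Of 26 NRF2 targets and antioxidants 2 were called higher, and of 31 genes of cholesterol and fatty acid synthesis 2 lower. ATF4, the transcription factor of the integrated stress response, had 258 and 214 CPM in dark_42, against 385 and 388 CPM in dark_14 (log2 difference -0.71 ± 0.12, adjusted p = 8.5e-04) in a list of 27 with a median of 0.02. GAPDH had 1327 and 1390 CPM in dark_42, against 1969 and 2079 CPM in dark_14, while ENO1 had 1846 and 1659 CPM in dark_42, against 1235 and 1301 CPM in dark_14, and TPI1 and PGK1 rose by 0.41 and 0.38. GAPDH and ATF4 were called in all 12 fits, and none of the 3 rises was called without dark_14 a. Ferritin light chain FTL and thioredoxin TXN rose by 0.52 and 0.51, and the metallothioneins MT1X and MT2A fell by 0.51 and 0.41, in a list of 6 tested metallothioneins with a median of -0.31 and 1 above 0. Without dark_14 b neither FTL nor TXN was called, and without dark_14 a neither metallothionein was. FASN of fatty acid synthesis fell by 0.45, and leaving out any single dark library ended its call. JUNB, an immediate early transcription factor, and GADD45B, a stress sensor, fell by 0.68 and 0.91, and neither was called without dark_14 a.

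Ribosomal and cell cycle genes gave calls in both directions. Over all tested genes 1.81% were called higher and 5.23% lower. Cytosolic ribosomal protein genes, with 1 called higher and 3 lower of 47, were close to those shares. Of 47 cytosolic ribosomal protein genes, RPS25 rose, with 871 and 994 CPM in dark_42, against 611 and 588 CPM in dark_14, and RPS29, RPS3 and RPL30 fell by 0.69, 0.52 and 0.45. RPS29 was not called without dark_42 b, RPS3 not without dark_14 a, and RPL30 was called in 7 of the 12 fits that left out 1 library, not in those without dark_3 a, dark_3 b, dark_14 a, dark_14 b or dark_42 b. The list median was 0.06, and processed pseudogenes make single members uncertain. Of 30 genes of G2 and mitosis, 24 lay above 0 with a median of 0.19, and 3 were called higher and 2 lower. BUB1B of the spindle checkpoint had 129.5 and 101 CPM in dark_42, against 68.7 and 86.6 CPM in dark_14, and CCNA2, cyclin A, had 90.9 and 79.3 CPM in dark_42, against 58.1 and 64.3 CPM in dark_14. The kinase TTK rose by 0.53 on the log2 scale. The phosphatase CDC25C had 16.5 and 18.5 CPM in dark_42, against 31.5 and 31.3 CPM in dark_14, and was called in all 12 fits. UBE2C, a ubiquitin-conjugating enzyme of the same phase, fell by 0.65 and was not called when any 1 of the 4 dark_42 and dark_14 libraries was left out. The proliferation marker MKI67 had 1176 and 1016 CPM in dark_42, against 808 and 1047 CPM in dark_14, with overlapping groups. Without dark_14 a, none of the 3 rises was called.

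Other lists showed few or no calls beside the background of 7.04%. Of 32 genes of G1/S and DNA replication, CHAF1A of the chromatin assembly factor rose by 0.45 on the log2 scale but was called in 6 of the 12 fits that left out 1 library, those without an irradiated library. The list median was 0.14. Genes of MHC class I presentation had 0 calls of 16 by edgeR and DESeq2, with 2 higher and 2 lower at an unadjusted p under 0.05 and a median of -0.10. Wound keratins and alarmins had 0 calls of 11 by edgeR and DESeq2, with 2 lower at an unadjusted p under 0.05 and a median of -0.08. JUNB was the 1 call of 29 immediate early genes and GADD45B the 1 call of 27 p53 targets and inhibitors of cyclin-dependent kinases. CDKN1A, the best known of those, had 68.4 and 75.4 CPM in dark_42, against 116 and 82.5 CPM in dark_14, and was not called (adjusted p = 0.097). B3GALT5, a galactosyltransferase, had 12.9 and 13.4 CPM in dark_42, against 11.5 and 7.54 CPM in dark_14 (adjusted p = 0.18). The groups did not overlap for either gene, as for 49.7% of tested genes.

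The irradiated cultures give a second measurement of the span from 14 to 42 sessions in libraries that the dark comparison does not share. Between blue_42 and blue_14, 31 genes were called (0.241%), 11 higher (0.0854%) and 20 lower (0.155%). These counts depended on single libraries: without blue_14 a, 132 were called higher and 121 lower, and without blue_14 b, 5 and 2. Of the 674 genes called lower in dark_42, 584 also had a negative value in the irradiated comparison, with a median of -0.28, and of the 233 called higher 193 had a positive one. Over all tested genes 49.5% of irradiated values were negative. Called in both comparisons with the same direction were 16 genes, which is 1.76% of the dark calls and 51.6% of the irradiated calls. Among them were SPON2, IVL, SYT1, MMP13 and TP53I11, which were lower, and ZNF618 and BASP1, which were higher. The dark calls of MMP13 and TP53I11 were lost without dark_42 b, and also without dark_14 a for MMP13 and without dark_14 b for TP53I11. In irradiated cultures SPON2 averaged 13.2 ± 0.04 CPM in blue_42 and 39.4 ± 9.8 CPM in blue_14 (SD, n = 2 each), and IVL 77.1 ± 1.2 CPM in blue_42 and 160.9 ± 23.6 CPM in blue_14.

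The low neuron and glia rows summed to 39.1 and 31.0 CPM in blue_42, against 111 and 75.9 CPM in blue_14, which is 2.67-fold lower, beside 6.94-fold in the dark cultures. Mitochondrially encoded transcripts had a median of -0.02 in the irradiated comparison with 0 called by edgeR or DESeq2 and 0 at an unadjusted p under 0.05. Tested as a difference between the dark and the irradiated change, 0 of the 15 were called by edgeR and 2 by DESeq2, while 7 had an unadjusted p under 0.05. Interferon-stimulated genes had a median of -0.11 in the irradiated comparison and 0 calls by edgeR or DESeq2, with 7 at an unadjusted p under 0.05. The difference between the changes was called for 0 of the 44, with 13 at an unadjusted p under 0.05 and 0 by DESeq2.

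**Figure D5:**
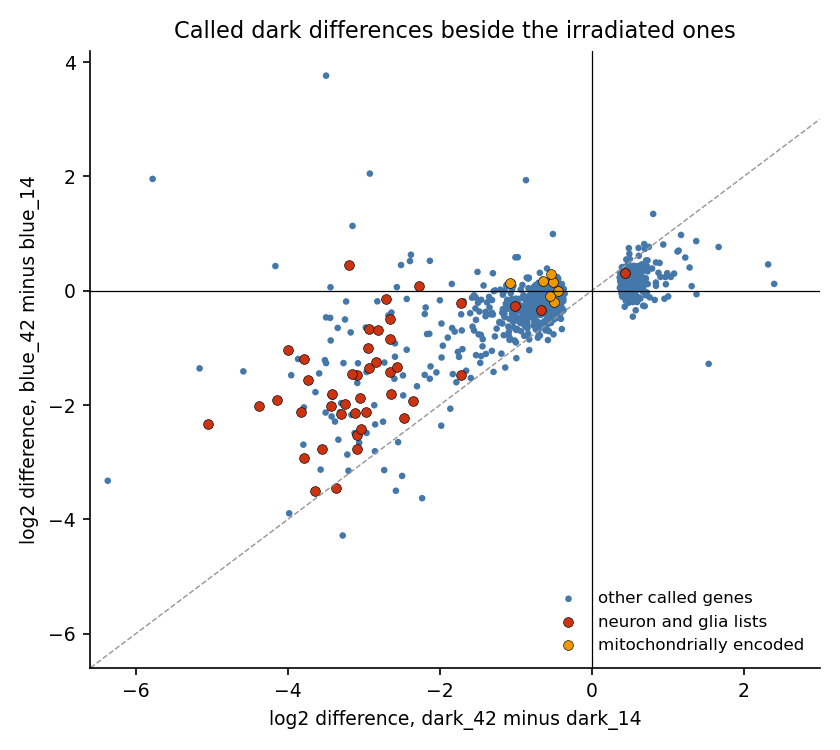
Log2 difference of dark_42 minus dark_14 (horizontal axis) and of blue_42 minus blue_14 (vertical axis) for the 907 genes called in the dark comparison, with neuron and glia list members in red and mitochondrially encoded transcripts in orange; the dashed line marks equal values. Most points lie in the lower left or upper right quadrant and nearer 0 on the vertical axis, with medians of -0.72 and -0.28 for the genes called lower.

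The dark change differed from the irradiated change for 7 genes in the test of that difference (0.0544% of genes tested). SFRP1 had 3.46 and 3.64 CPM in dark_42, against 5.73 and 6.90 CPM in dark_14, whereas it averaged 50.5 ± 7.4 CPM in blue_42 and 13.5 ± 2.5 CPM in blue_14 (SD, n = 2 each). CALD1, an actin-binding protein of contractile cells, had 22.5 and 20.3 CPM in dark_42, against 31.5 and 29.9 CPM in dark_14, and 47.3 ± 1.1 CPM in blue_42 and 23.6 ± 1.6 CPM in blue_14. The dark_3 means were 17.5 CPM for SFRP1 and 22.6 CPM for CALD1. Both were called in both comparisons with opposite directions, but the dark calls depended on single libraries. That of SFRP1 (log2 difference -0.87 ± 0.26, adjusted p = 0.045) was made in 2 of the 12 fits that left out 1 library, and its adjusted p was 0.11 by DESeq2 and 0.14 with the 4 dark_42 and dark_14 libraries alone. That of CALD1 was lost without dark_14 a, dark_14 b or dark_42 b, and its adjusted p was 0.10 by DESeq2 and 0.088 with the 4 libraries alone. MED24, a subunit of the Mediator complex at chr17:40019097-40061215, had 51.7 and 39.8 CPM in dark_42, against 106 and 121 CPM in dark_14, and dark_3 averaged 129 CPM. It averaged 90.7 ± 6.3 CPM in blue_42 and 101 ± 13.5 CPM in blue_14. MED24 was lower in dark_42 than in any other group of the series, by its mean.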

How the data were processed

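RNA was measured with a kit that reads transcript 3' ends, per the labels' protocols, in 12 HaCaT libraries in 6 groups of 2. The deposited values are read counts per gene, not normalized. Reads were aligned with STAR to GRCh38 and counted with featureCounts, per the submitters' processing notes. No source used here gives the annotation release or the strand setting, so overlapping and antisense genes, and near-identical copies, are uncertain.

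The table had 45372 rows, of which 22754 had a count in some library. Genes were filtered with filterByExpr at a minimum count of 10, leaving 12878, scaled by TMM and fitted with edgeR 4.0.16 (limma 3.58.1, R 4.3.3) by robust quasi-likelihood over all 12 libraries with 1 mean per group, which leaves 6 residual degrees of freedom. A gene was called at a Benjamini-Hochberg adjusted p under 0.05 over all tested genes. The 3 comparisons were dark_42 against dark_14, blue_42 against blue_14, and the difference between these changes. Standard errors are those of the fit. The common biological coefficient of variation was 9.41%. In the shallowest and deepest library, 3 counts correspond to 1.45 and 0.367 CPM, and intervals cover counting error only. The steps were also tested on simulated data.

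Named genes were the 12 largest called changes each way outside the cell type lists, at 10 CPM or more in the higher group with both dark_42 libraries beyond both dark_14 libraries; the 10 neuron genes highest in dark_14; all mitochondrially encoded transcripts; up to 6 called members of each other list by adjusted p; a short panel of keratins, proliferation and secreted genes; and the 6 largest called genes each way of the irradiated comparison and of the difference. The members and the 38 gene lists were chosen with earlier results of these data known. Alternatives were other size factors, other filters, non-robust estimation, fewer libraries, each library left out, a replicate block, DESeq2 1.42.0, and the summed neuron lists as a covariate; the low neuron and glia sum as a covariate, a GC offset, both blue_14 libraries left out and a crossed block were added after seeing the data. Promoter sequences are from RefSeq. Some single genes are not reported here.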

Additional observations from a re-analysis of the deposited data

Results flagged for a closer look

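For 7 genes the test of the difference between the dark and the irradiated change gave an adjusted p under 0.05 in edgeR's quasi-likelihood test, and 6 of them are given here. The value given is the log2 difference of dark_42 minus dark_14 less that of blue_42 minus blue_14. It was -2.80 for SFRP1 (adjusted p = 3.4e-04), with both dark_42 libraries below both dark_14 libraries and both blue_42 libraries above both blue_14 libraries. CALD1 had -1.50 (adjusted p = 0.0015) with the same arrangement. OLFM4 had -1.56 (adjusted p = 0.0083), where the irradiated change alone, 0.59, was not called. MED24 had -1.15 (adjusted p = 0.022), with an irradiated change of -0.16 that was not called. CDH2, the cadherin of mesenchymal and neural cells, had -0.95 (adjusted p = 0.044), and VAV3, a guanine nucleotide exchange factor, had 1.01 (adjusted p = 0.049), where the dark change of neither was called. With single libraries left out the number of such genes ran between 2, without dark_42 b or blue_42 b, and 53, without blue_14 a.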

How the results depend on the processing

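Without a filter on low counts 417 genes were called higher. With only the 4 dark_42 and dark_14 libraries 60 were called higher and 383 lower, and by DESeq2 114 higher. Of the 233 and 674 calls, 59 and 360 were also made from the 4 libraries and 111 and 459 by DESeq2. Leaving out 1 library gave 33 to 352 called higher and 251 to 795 lower. It gave 22 to 38 neuron genes called lower with list medians of -2.93 to -1.81, and 1 to 10 mitochondrially encoded transcripts called lower with medians of -0.58 to -0.34. With at least 5 CPM in 2 libraries, 12 neuron genes were called lower with a median of -0.41. For blue_42 against blue_14, 131 were called higher and 167 lower without a filter and 46 lower by DESeq2, and leaving out 1 library gave 4 to 132 higher and 2 to 121 lower. The difference between the changes was called for 80 genes without a filter and 25 by DESeq2, and for 2 to 53 with 1 library left out. The cause was not tested.

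With the replicate block, 209 genes were called higher and 665 lower, 201 and 622 of them among the calls without it. The letters do not pair the samples: over 15 pairs of groups the correlation of a minus b ran between -0.44 and 0.41, over 0.1 in 4. The crossed replicate block, added because dark_42 and dark_14 had -0.44, gave 176 higher and 582 lower.

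With the summed neuron lists as a covariate, a sum mostly from rows at 2 CPM or more in dark_3, 244 genes were called higher and 281 lower. Among those called lower were 1 neuron gene and 0 mitochondrially encoded transcripts, with list medians of -0.082 and -0.025. The share of calls that were lower was 53.5%, against 74.3% without it. There 360 genes were called higher and 340 lower for blue_42 against blue_14, and 23 for the difference. With the low neuron and glia sum as a covariate 2 were called higher and 9 lower, 0 of them neuron genes and 0 mitochondrially encoded transcripts. The neuron and mitochondrial medians were then -0.18 and -0.40, with 5 called higher for blue_42 against blue_14 and 2 for the difference. Median standard errors were 0.368 and 0.369 with these terms and 0.144 without. Log2 differences that changed sign with the neuron lists as a covariate were 0.46 for MAP1A, -0.59 for NAV2, 1.32 for TUBA4A, 0.31 for MAP1B, 0.35 for MT-CYB, 0.24 for MT-ND1, 0.89 for SNAP25, 7.65 for SYT4, 0.70 for GAP43, 1.73 for KIF5C, 1.33 for ELAVL3, 0.49 for RBFOX1, 0.41 for THY1, 0.56 for NCAM1, 1.32 for GRIN2A, 0.44 for SCN2A, 2.73 for CPE, 0.53 for CAMK2B, 0.16 for SLC17A7, 1.03 for SPARCL1, -0.12 for PARP14, 0.18 for BMP7 and 0.29 for IL1RN. With the low sum they were 0.32 for FAM107A, 0.38 for MAP1A, -0.32 for NAV2, 0.52 for MAP1B, 0.20 for CPLX2, 2.15 for SNAP25, 3.72 for SYT4, 0.93 for GAP43, 1.69 for KIF5C, 1.61 for ELAVL3, 0.70 for THY1, 0.11 for NCAM1, 0.89 for SCN2A, 1.92 for CPE, 1.36 for CAMK2B, 0.25 for SLC17A7, 0.64 for MOBP, 1.17 for SLC1A2, 1.08 for SPARCL1 and 1.10 for ZEB2. Of these, TUBA4A with the neuron lists as a covariate was the 1 that passed the threshold (edgeR adjusted p = 0.019). RLE size factors moved no count of calls by over 1.5 times.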

Other observations

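Genes called lower had a higher GC content than those called higher. At 10 CPM or more in dark_3, the median transcript GC content was 54.9% for genes called lower, 43.7% for genes called higher and 47.9% for all 8522 genes in that range. Of the 1705 of these genes with the lowest GC content 60 were called higher and 25 lower, and of the 1705 with the highest 24 were called higher and 182 lower. The median log2 differences of those groups were 0.11 and -0.08 between dark_42 and dark_14, and 0.04 and -0.02 between blue_42 and blue_14. With an offset for GC content, which was added after seeing the data, 206 genes were called higher and 607 lower. Of these, 154 and 553 were among the 233 and 674 calls made without it.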
